A study of Mus musculus with 16 samples.

Results

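Foxi1, Clic6, Car12, Car2, Atp6v1b1, Ascl3 and Cftr are genes of ion-transporting epithelial cells, and their mRNA was followed across 4 mouse mammary tumour cell lines. These 7 genes, of 19057 on the array annotation, were selected on measured values: Foxi1 and Clic6 had been seen near background in the WT HER2 lines and high in the d16HER2 lines. The question was whether other genes known from ionocytes follow them. All 13 probes annotated to the 7 symbols, of 45281 probes, were taken, and 9 probes of 5 genes passed a filter on low signal. A probe passed with a detection p-value under 0.05 on 4 or more of the 16 arrays. Neither probe of Cftr and not the single probe of Ascl3 passed.

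Total RNA of each line was measured on 4 Illumina mouse BeadChip arrays, which read each probe as the light intensity of beads carrying it. MI6 and MI7 are transgenic for d16HER2, a splice variant of the receptor HER2 that lacks an exon of its extracellular part, and WTHER2-1 and WTHER2-2 are transgenic for wild-type HER2. All 4 are transgenic HER2-positive mammary tumour lines, so no group was without a HER2 transgene, each transgene was represented by 2 lines, and the labels give neither the promoter of the transgene nor the age of the animals. Separate cultures are not mentioned in the labels, so errors and p-values within a line measure the spread between arrays, which may be technical.

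MI6 and MI7 shared 2 BeadChips, and each WT HER2 line lay on 2 BeadChips of its own. No BeadChip held both transgenes, so BeadChip and transgene cannot be told apart. Detected probes made up between 35.8% and 42.4% of the probes of an array. The mean log2 intensity of 10 epithelial markers, among them Epcam, Cdh1, Krt8 and Krt18, lay between 11.90 and 12.21 on the d16HER2 arrays and between 10.90 and 11.44 on the WTHER2-1 arrays. In WTHER2-2 it was 11.72 and 11.58 on the arrays of 1 BeadChip and 8.42 and 6.51 on the other. The mean of 6 fibroblast markers ran from 4.99 to 5.32 on the d16HER2 arrays and from 5.62 to 6.34 on the WTHER2-1 arrays, and in WTHER2-2 it was 7.86 and 8.19 on the first BeadChip and 11.55 and 10.69 on the other. Replicates 3 and 4 of WTHER2-2 therefore went against the labelled epithelial tumour type. Several results that rest on them are also given without them, and the others describe all 16 arrays. Of the leukocyte markers on the array, Ptprc, Adgre1, Lyz2 and Cd3e were detected on 0 arrays and Csf1r on all 16, with line means from 6.25 to 6.50.

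Ionocytes of the airway and intercalated cells of the kidney are scattered, mitochondria-rich epithelial cells that move protons, bicarbonate and chloride across the epithelium. The forkhead transcription factor FOXI1 specifies them in mice and drives genes of the vacuolar proton pump. Carbonic anhydrases supply these cells with protons and bicarbonate, the V-ATPase carries the protons out, and CFTR is the chloride channel for which airway ionocytes are best known. In the mammary gland, carbonic anhydrase 12 is known from luminal epithelium.

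Promoter sequence of 250 bases upstream of the transcript start, from RefSeq (GRCm38.p6), matched 5 of the 7 genes. It is shown for Foxi1 itself and for the 3 genes whose window holds a forkhead core, since FOXI1 is a forkhead factor. The windows are Foxi1 at chr11:34208090-34208339 on the minus strand, Car12 at chr9:66713436-66713685 on the plus strand, Atp6v1b1 at chr6:83742767-83743016 on the plus strand and Ascl3 at chr7:109731733-109731982 on the minus strand. Capitals mark a match to the core TGTTTAC or to the shorter TGTTTA inside it, on either strand (reversed, GTAAACA and TAAACA).
Foxi1: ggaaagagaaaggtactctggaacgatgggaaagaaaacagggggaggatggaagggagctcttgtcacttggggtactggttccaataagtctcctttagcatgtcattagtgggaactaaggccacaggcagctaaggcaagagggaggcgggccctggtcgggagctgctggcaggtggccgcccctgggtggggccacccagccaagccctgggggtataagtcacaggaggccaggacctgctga
Car12: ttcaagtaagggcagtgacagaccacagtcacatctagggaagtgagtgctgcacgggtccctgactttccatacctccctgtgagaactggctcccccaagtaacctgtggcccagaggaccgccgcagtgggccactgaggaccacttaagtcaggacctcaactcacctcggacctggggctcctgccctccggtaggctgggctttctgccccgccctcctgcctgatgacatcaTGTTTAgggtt
Atp6v1b1: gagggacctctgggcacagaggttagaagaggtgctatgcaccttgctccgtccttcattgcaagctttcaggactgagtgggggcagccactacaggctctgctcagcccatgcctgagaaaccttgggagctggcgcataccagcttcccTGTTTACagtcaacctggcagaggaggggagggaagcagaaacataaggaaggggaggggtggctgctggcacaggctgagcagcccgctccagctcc
Ascl3: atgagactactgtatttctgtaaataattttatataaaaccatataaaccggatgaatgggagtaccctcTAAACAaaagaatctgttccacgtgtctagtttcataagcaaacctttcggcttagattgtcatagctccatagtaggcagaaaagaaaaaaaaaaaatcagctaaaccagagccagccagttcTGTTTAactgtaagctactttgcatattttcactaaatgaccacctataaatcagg
The Atp6v1b1 window held TGTTTAC from 98 to 92 bases upstream of the start. The Car12 window held TGTTTA from 11 to 6 bases upstream. In Ascl3 the shorter core lay from 180 to 175 bases upstream on the opposite strand and from 56 to 51 bases upstream on the gene's own strand. The windows of Foxi1 and Cftr held neither. Over 32851 such windows of mouse genes, 3.17% held TGTTTAC and 12.0% held TGTTTA, which counts the windows with the longer core too. A match describes these letters and is not a binding site.

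Intensities below are log2 values after background correction and quantile normalization, with replicates 1 to 4 of a line in order. A probe without signal lies near 5 on this scale. Levels of different probes are not comparable, so genes are set against each other only by their differences between lines. In bulk RNA, fewer cells of a type and less RNA per cell cannot be told apart.

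Foxi1, the forkhead factor that specifies ionocytes and intercalated cells, was detected on every d16HER2 array and on 1 of 8 WT HER2 arrays. Its brightest probe read 10.54, 10.59, 10.47 and 10.25 in MI6 and 10.62, 10.29, 10.37 and 10.59 in MI7. It read 4.88, 5.09, 4.88 and 4.79 in WTHER2-1 and 5.98, 4.76, 4.75 and 4.68 in WTHER2-2. The d16HER2 arrays were tightly grouped and lay far above all WT HER2 arrays, among which replicate 1 of WTHER2-2 stood alone as detected. The line means differed by 5.49 ± 0.23 (limma SE over the 4 line means, 2 against 2). In that SE the variance is drawn towards that of other genes, so it is not the spread of the 4 Foxi1 means alone. The same holds for each later error of a difference. With each WT HER2 value raised to at least the lowest detected signal of its array, d16HER2 was at least 27.5-fold higher. The other 2 Foxi1 probes were higher by 3.85 and 3.38 on the log2 scale, at least 9.80-fold and 6.31-fold, and neither had overlapping groups. On that replicate of WTHER2-2 the second probe read 5.69 and the third, which was detected on no WT HER2 array, read 4.96.

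**Figure D1:**
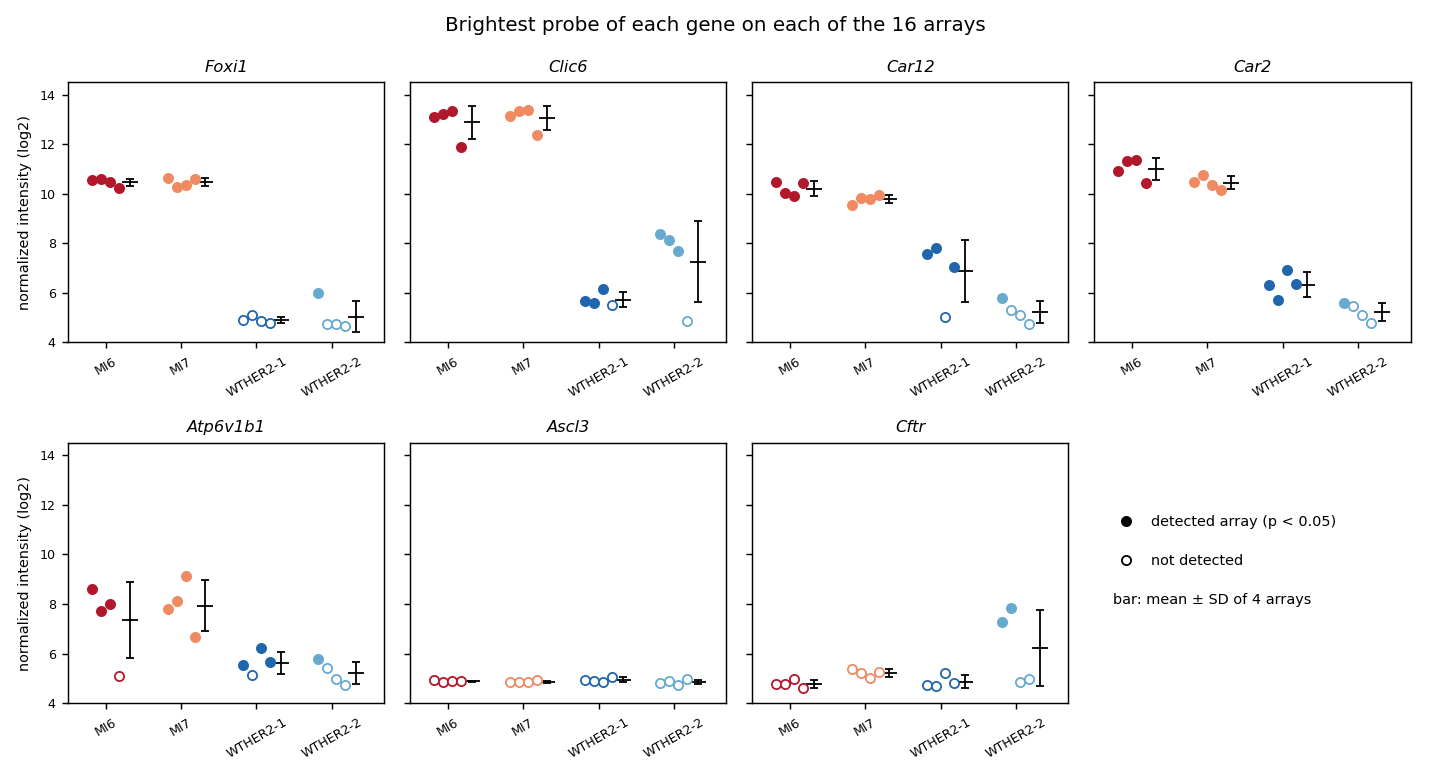
Normalized log2 intensity (vertical axis) of the brightest probe of each of the 7 genes on the 16 arrays, by line; filled points are detected arrays, open points are not, and the bar is the mean ± SD of 4 arrays. Foxi1, Clic6, Car12 and Car2 were higher on every d16HER2 array than on any WT HER2 array, Atp6v1b1 was so except on MI6 replicate 4, and Ascl3 was detected on 0 arrays.

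Clic6, a member of the chloride intracellular channel family, was measured by 1 probe. It read 13.10, 13.21, 13.34 and 11.91 in MI6 and 13.15, 13.36, 13.40 and 12.35 in MI7. In WTHER2-1 the values were 5.66, 5.57, 6.17 and 5.50, and in WTHER2-2 they were 8.38, 8.11, 7.69 and 4.85. The groups did not overlap, replicate 4 was the lowest array in both d16HER2 lines, and WTHER2-2 was spread most widely. The line means differed by 6.49 ± 0.57, at least 80.3-fold, the largest difference among the 5 tested genes of the group. The WT HER2 lines were less uniformly low for Clic6 than for Foxi1, since 6 of their 8 arrays detected it, 3 in each line. Against WTHER2-1 the d16HER2 lines were at least 150-fold higher, and against WTHER2-2 at least 42.9-fold.

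Car12, a membrane-bound carbonic anhydrase with its active site outside the cell, read 10.48, 10.01, 9.92 and 10.43 in MI6 and 9.55, 9.83, 9.80 and 9.96 in MI7. It read 7.58, 7.79, 5.04 and 7.06 in WTHER2-1 and 5.81, 5.29, 5.09 and 4.75 in WTHER2-2. All d16HER2 arrays lay above all WT HER2 arrays, but 3 of the 4 WTHER2-1 arrays held a clear signal and replicate 3 did not. The line means differed by 3.95 ± 0.63, with d16HER2 at least 12.2-fold higher. A second Car12 probe differed by 3.56, at least 8.34-fold, with no overlap. It too was detected on 3 WTHER2-1 arrays and on 0 of WTHER2-2.

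Car2, the abundant cytosolic carbonic anhydrase of intercalated cells, osteoclasts and red blood cells, followed the same order. Its values were 10.90, 11.33, 11.38 and 10.43 in MI6 and 10.49, 10.76, 10.37 and 10.16 in MI7. They were 6.33, 5.73, 6.93 and 6.34 in WTHER2-1, where each array detected it, and 5.58, 5.47, 5.09 and 4.78 in WTHER2-2, where 1 did. The groups were apart by several log2 units, and WTHER2-1 lay above WTHER2-2. The line means differed by 4.95 ± 0.49, at least 26.1-fold, with a limma adjusted p of 0.0562 in the test on 4 line means, which missed the threshold of 0.05. A second Car2 probe was detected on 0 of 16 arrays, with values from 4.59 to 5.28, and gave no reading of the gene.

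Atp6v1b1 encodes the B1 subunit of the V-ATPase, the form of this subunit used by ion-transporting epithelia. It read 8.62, 7.72, 7.99 and 5.09 in MI6 and 7.80, 8.13, 9.15 and 6.66 in MI7. In WTHER2-1 it read 5.56, 5.14, 6.21 and 5.64, and in WTHER2-2 5.76, 5.40, 4.96 and 4.73. Of the d16HER2 arrays 7 of 8 lay above all WT HER2 arrays, and MI6 replicate 4 was not detected and lay among them. The line means differed by 2.22 ± 0.32, at least 3.72-fold, with a limma adjusted p of 0.0837 over the 4 line means.

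The weakest line pair for Atp6v1b1 was MI6 over WTHER2-1, by 1.72 ± 0.63 (limma adjusted p = 0.0471), and the strongest was MI7 over WTHER2-2, by 2.72 (limma adjusted p = 0.00321). The separated call was kept without MI6 replicate 4, MI7 replicate 3 or 4, WTHER2-1 replicate 3, or WTHER2-2 replicate 1 or 4, and lost when any of the other 10 arrays was left out, with differences from 2.01 to 2.59 in all 16 fits. Without replicate 4 of both d16HER2 lines, a setting chosen after seeing the data, the difference between the line means was 2.81. The second probe of the gene did not follow: it was detected on 7 d16HER2 arrays and on 4 WT HER2 arrays, its values ran from 5.43 to 6.42 and from 5.16 to 6.08, and its difference was 0.35 ± 0.20 (limma adjusted p = 0.427 over the probes). The difference of Atp6v1b1 therefore rests on 1 probe.

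Replicate 4 of MI6 and of MI7 was also the lowest array of its line for Clic6 and Car2. The mean of 9 proliferation genes, a list added after seeing the data, was 9.55, 10.89, 10.79 and 8.93 in MI6 and 10.41, 10.97, 10.87 and 9.71 in MI7. Replicate 4 was the lowest array of each line on this mean as well, and its part in the values of Clic6, Car2 and Atp6v1b1 was not tested. By their brightest probes, Foxi1 and Car12 varied little there. Replicate 4 of MI6 and MI7 read 10.25 and 10.59 for Foxi1 and 10.43 and 9.96 for Car12. The value of 10.25 was still the lowest of MI6 for Foxi1. The second Foxi1 probe was lowest on replicate 4 in both lines. It read 8.43 there against 8.88 or more in MI6, and 8.63 against 8.68 or more in MI7. The third Foxi1 probe was lowest on replicate 4 in neither line.

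Ascl3, a basic helix-loop-helix factor of ionocytes and salivary duct cells, was detected on 0 of 16 arrays, with values from 4.75 to 5.07. At this probe's signal over background, no level and no difference between lines was detectable. Cftr was not detected on any d16HER2 array. Its brighter probe read 4.75, 4.77, 4.97 and 4.60 in MI6, 5.38, 5.20, 5.01 and 5.23 in MI7, 4.72, 4.68, 5.23 and 4.83 in WTHER2-1, and 7.27, 7.82, 4.83 and 4.97 in WTHER2-2. The 2 detected arrays were WTHER2-2 replicates 1 and 2, the arrays of 1 BeadChip, where the epithelial markers of that line were high. Deposited intensities of this probe were 208 and 288 there and between 75 and 155 elsewhere. The other Cftr probe, from 4.55 to 4.70, was detected on 0 arrays, so Cftr was read by 1 of its 2 probes and on no array of the lines with high Foxi1.

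**Figure D2:**
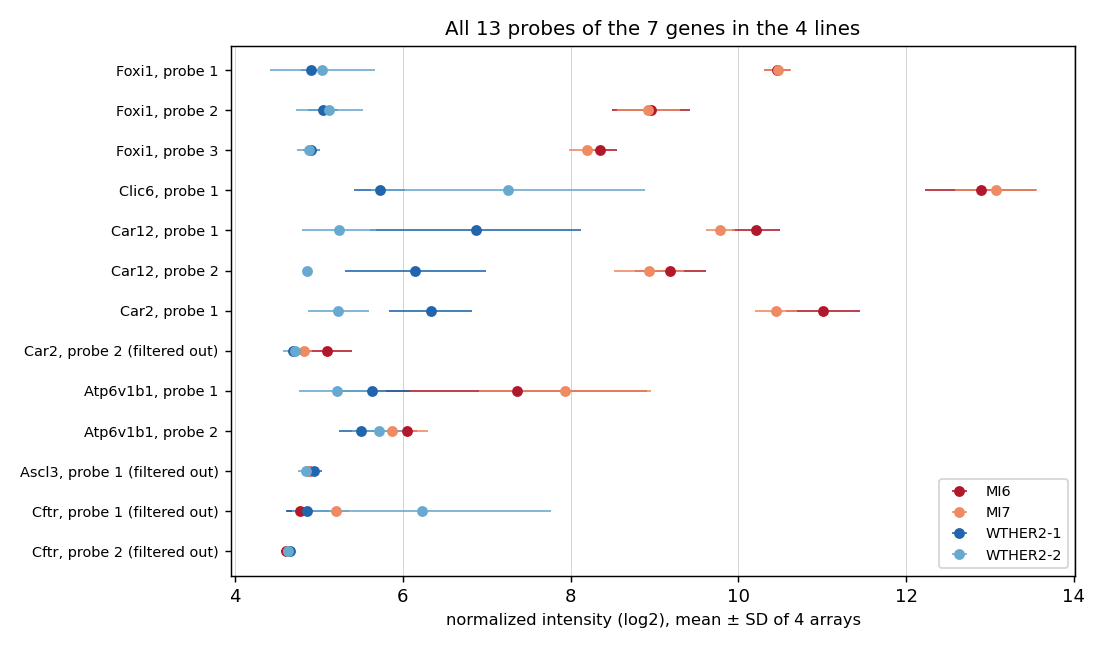
Mean ± SD of 4 arrays (horizontal axis, normalized log2 intensity) for each of the 13 probes in each line. The d16HER2 lines lay to the right at all Foxi1, Clic6 and Car12 probes, at the first probe of Car2 and of Atp6v1b1, and the lines lay together at the second probe of Car2 and of Atp6v1b1 and at Ascl3.

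A gene was called separated when its difference had 1 sign in all 4 pairs of a d16HER2 with a WT HER2 line, each past an adjusted p of 0.05 and a log2 difference of 1 in a limma fit over the 16 arrays. Of the 10724 tested genes, 5.52% were separated, 3.06% with the d16HER2 lines higher and 2.46% with them lower. All 5 tested genes of the group, and 8 of their 9 passing probes where 4.65% of all 20152 tested probes were (2.66% higher), were separated, which describes genes chosen with these values known. Foxi1 passed the signal filter through its 8 d16HER2 arrays and 1 other, so it could hardly enter without differing, and the count supports nothing further. All 8 d16HER2 arrays lay above all 8 WT HER2 arrays for 4 of the 5, compared with 6.84% of all tested genes. In the test on 4 line means 1 of the 5 passed after adjustment, where 0.494% of all genes did. Without WTHER2-2 replicate 1 or 2 that count was 0, and 0 of all genes passed. It was 3 without replicate 3 of WTHER2-1, where 142 of 10635 genes passed, and without replicate 3 of WTHER2-2, where 113 of 10618 did. This too is a description, since the contrast chose Foxi1 and Clic6. With 2 lines on each side, the smallest p of an exact permutation test is 0.333.

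Within the d16HER2 pair, 0 of the 5 genes differed between MI6 and MI7 at the same thresholds in limma, where 1.18% of all genes did, and 0 had an unadjusted p under 0.05, where 9.12% did. The MI6 minus MI7 differences were -0.01 ± 0.24 for Foxi1, -0.18 ± 0.59 for Clic6, 0.43 ± 0.45 for Car12, 0.57 ± 0.27 for Car2 and -0.58 ± 0.63 for Atp6v1b1. Car2 came nearest to the threshold, at an unadjusted limma p of 0.0566. With the BeadChips that both lines share as a fixed block, 0 were again called, and 2 had an unadjusted p under 0.05: Car2 at 0.57 ± 0.21 (limma adjusted p = 0.235) and Car12 at 0.43 ± 0.17 (limma adjusted p = 0.295). Within BeadChip 1 and BeadChip 2 the Car2 difference was 0.49 and 0.64, that of Car12 0.56 and 0.29, and that of Foxi1 0.11 and -0.12. For Clic6 it was -0.10 and -0.26 and for Atp6v1b1 0.20 and -1.36, the latter with replicate 4 of MI6 on BeadChip 2. Foxi1 was measured at nearly the same level in both lines, while differences as large as the wider errors of the others were not resolved.

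Between the WT HER2 lines, 2 of the 5 genes were called, both of them carbonic anhydrases, where 15.9% of all genes were (8.17% higher in WTHER2-1 and 7.7% higher in WTHER2-2). Car12 was higher in WTHER2-1 than in WTHER2-2 by 1.63 ± 0.45 (limma adjusted p = 0.0111). Car2 was higher there by 1.10 ± 0.27 (limma adjusted p = 0.00618). Clic6 pointed the other way, by -1.53 ± 0.59, and missed the threshold (limma adjusted p = 0.0562), but was called with WTHER2-2 higher without WTHER2-2 replicate 4, by -2.35 (limma adjusted p = 1.03e-04), and without replicates 3 and 4, by -2.54 (limma adjusted p = 8.34e-05). For Foxi1 the difference was -0.13 ± 0.24 and for Atp6v1b1 0.42 ± 0.63, with limma adjusted p-values of 0.703 and 0.634. In WTHER2-2, Car2 and Car12 lay close to the detection limit, and 1 array detected each. In WTHER2-1, Car2 read from 5.73 to 6.93, and Car12 had a clear signal on 3 arrays. Car2 and Car12 each lost their call when no background was subtracted, with differences of 0.54 and 0.90, and in the deposited normalized values, with the same differences. Both calls were also lost without replicates 3 and 4 of WTHER2-2, with differences of 0.82 and 1.33. Car2 also lost its call with an offset of 50, at 0.68, without WTHER2-1 replicate 3, at 0.89, and without WTHER2-2 replicate 4, at 0.97.

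Other genes of ionocytes and intercalated cells mostly gave no signal. Of 25 listed genes, 23 were on the array and 7 passed the filter. The other 16 included the forkhead paralogues Foxi2 and Foxi3, the pump subunits Atp6v1g3, Atp6v0a4 and Atp6v0d2, the anion exchangers Slc4a1, Slc4a9 and Slc26a7, the chloride channel subunit Bsnd and the ammonia channel Rhbg. Each of these was detected on 0 arrays. Among the 7 tested genes 1 was separated, higher, and 6 were not, beside the 5.52% separated and 3.06% higher over all tested genes. Their median difference was 0.14, with a range from -0.97 to 3.08, beside a median of 0.03 over all tested genes.

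Atp6v1c2, a tissue-restricted C subunit of the V-ATPase, was the separated gene. It read 9.92, 10.13, 10.15 and 8.66 in MI6 and 10.91, 11.22, 11.09 and 9.81 in MI7. It read 6.99, 7.71, 6.53 and 6.73 in WTHER2-1 and 8.58, 7.49, 6.68 and 6.54 in WTHER2-2. The groups did not overlap, although MI6 replicate 4 and WTHER2-2 replicate 1 nearly met. The line means differed by 3.08 ± 0.44 (limma adjusted p = 0.0837 over the 4 line means), and another probe of the gene differed by 0.70 and was not separated. The other 6 included Slc26a4 (pendrin, a chloride and bicarbonate exchanger) at 0.14, Rhcg (an ammonia channel) at -0.06, and Tfcp2l1 (a transcription factor of the kidney collecting duct) at 1.12.

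Kit, a receptor tyrosine kinase that also marks luminal progenitors of the mammary gland, had a difference of 2.36 ± 1.83 and was not separated. It read from 10.62 to 12.95 in the d16HER2 lines, from 11.48 to 12.02 in WTHER2-1, and 8.18, 8.40, 5.60 and 4.68 in WTHER2-2. WTHER2-1 lay among the d16HER2 arrays, and its mean was 5.04 ± 0.62 above that of WTHER2-2, a pair that limma called (adjusted p = 2.46e-05). Without replicates 3 and 4 of WTHER2-2 that gap was 3.45 and was still called.

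Of 18 other tested V-ATPase subunits and accessory proteins, Atp6v1c2 was separated and 17 were not, a share close to the 5.52% of all tested genes. The median difference was 0.06. By mean, 10 were higher and 8 lower in the d16HER2 lines. Atp6v0e2, an isoform of a membrane-sector subunit, was the next highest at 1.59 and was not separated.

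Among 5 other tested carbonic anhydrases, Car5b, a mitochondrial form, was separated and 4 were not, again beside 5.52% of all genes. It read from 10.84 to 11.56 in the d16HER2 lines, 10.07, 10.59, 8.70 and 9.96 in WTHER2-1, and 9.88, 9.99, 9.57 and 9.23 in WTHER2-2. The gap between the groups was narrow. The difference was 1.40 ± 0.21 (limma adjusted p = 0.0852 over the 4 line means), the other 3 probes differed by 0.39 to 0.47 without separation, and without WTHER2-1 replicate 3 the gene lost its call at 1.22.

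In the chloride intracellular channel family, the 2 tested relatives of Clic6 did not share its difference. Another 2 of the 4 listed relatives on the array did not pass the filter and could not be assessed. Clic4, a widely expressed member, had a difference of -1.51 ± 0.36 and Clic1 of 0.20 ± 0.29, with limma adjusted p-values of 0.157 and 0.753 over the 4 line means, and neither was separated. Clic4 read from 10.83 to 11.34 in the d16HER2 lines, from 12.00 to 12.23 in WTHER2-1, and 12.12, 12.29, 13.89 and 13.75 in WTHER2-2. All d16HER2 arrays lay below all WT HER2 arrays, as they did for 4.73% of tested genes, and another Clic4 probe was separated, at -1.71. The highest values were those of the WTHER2-2 arrays rich in fibroblast markers, and without them the difference was -1.09.

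Among 21 other tested forkhead genes, 1 was separated higher and 1 lower, beside 3.06% and 2.46% of all genes, and the median difference was -0.34. Foxa3, an endodermal forkhead factor, read 6.70, 7.07, 7.17 and 6.43 in MI6 and 8.26, 8.76, 8.59 and 8.32 in MI7. In WTHER2-1 it read 5.78, 5.65, 5.28 and 5.47, and in WTHER2-2 6.06, 5.66, 5.19 and 5.55. It was higher in both d16HER2 lines and highest in MI7, with a difference of 2.08 ± 0.61, at least 3.75-fold (limma adjusted p = 0.195 over the 4 line means). The MI6 minus MI7 difference was -1.64 ± 0.22 (limma adjusted p = 5.20e-04), and Foxa3 lost its separated call, at 1.98, without WTHER2-2 replicates 3 and 4.

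Foxf1, a forkhead factor of mesenchyme, was separated lower and was detected on 0 d16HER2 arrays. It passed the signal filter through its 8 WT HER2 arrays alone, so it could hardly enter without differing. It read 6.45, 6.92, 6.43 and 6.48 in WTHER2-1 and 6.72, 6.46, 8.70 and 9.25 in WTHER2-2. The WT HER2 lines were at least 2.93-fold higher, and the 2 highest arrays were again those rich in fibroblast markers. Without these the difference was -1.67, beside -2.23 with them, and the call was kept.

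**Figure D3:**
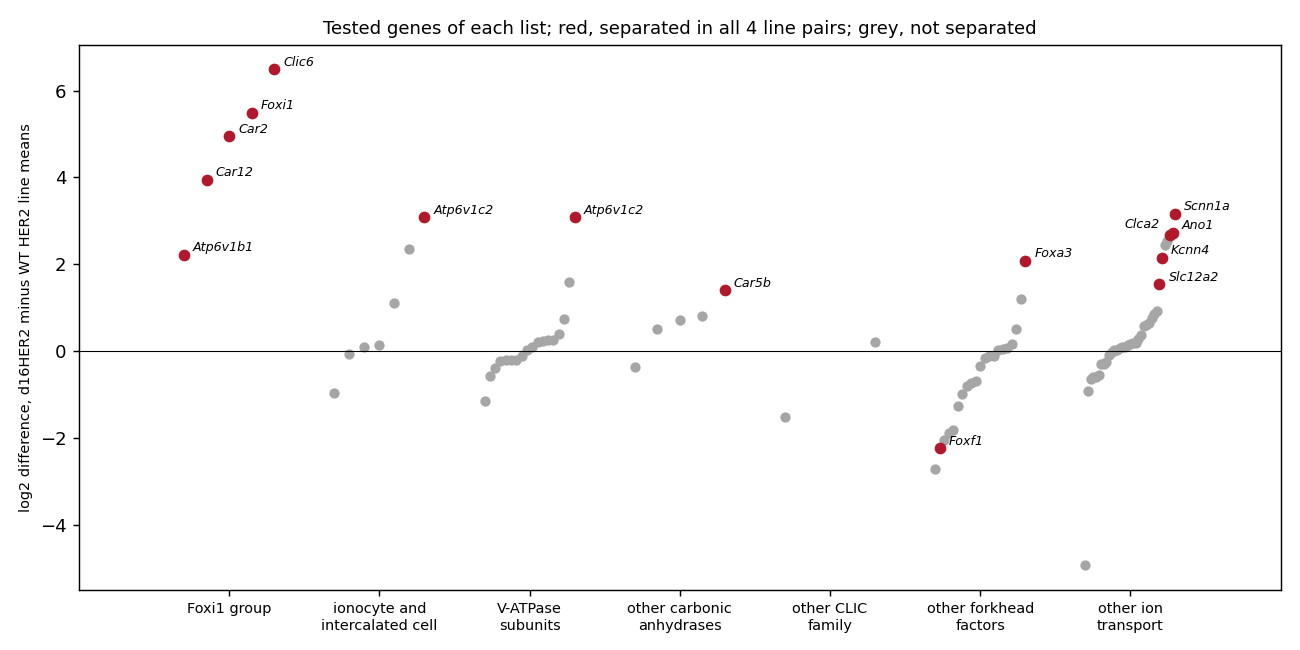
Difference between the d16HER2 and WT HER2 line means (vertical axis, log2) for each tested gene, in 7 lists along the horizontal axis, ordered by size within a list; red points are separated genes. Atp6v1c2 appears in 2 lists, most points of the lists outside the Foxi1 group lie near 0, and Foxf1 is the only separated gene below it.

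Of 35 other tested genes for channels and transporters, 5 were separated, all with the d16HER2 lines higher, and 30 were not, beside the 3.06% of all tested genes that were separated higher. The median was 0.17, with 24 higher and 11 lower by mean. Scnn1a, the alpha subunit of the epithelial sodium channel, read 8.85, 7.75, 7.63 and 8.20 in MI6 and 11.19, 9.74, 10.15 and 10.87 in MI7. It read 6.60, 7.18, 6.60 and 7.30 in WTHER2-1 and 6.05, 5.26, 5.09 and 4.96 in WTHER2-2. Each line stood on a level of its own, with MI7 highest and the MI6 and WTHER2-1 arrays close together.

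The d16HER2 minus WT HER2 difference of Scnn1a was 3.17 ± 1.03, at least 7.56-fold (limma adjusted p = 0.222 over the 4 line means). MI7 exceeded MI6 by a log2 difference of 2.38 ± 0.35 (MI6 minus MI7 = -2.38, limma adjusted p = 0.00146), and WTHER2-1 exceeded WTHER2-2 by 1.58 ± 0.35 (limma adjusted p = 0.00313). Scnn1a lost its separated call without MI6 replicate 1 and without WTHER2-1 replicate 1. The call was kept without WTHER2-2 replicates 3 and 4, with a d16HER2 minus WT HER2 difference of 3.02. WTHER2-2 replicates 1 and 2 averaged 5.66, beside a WTHER2-1 mean of 6.92, and no fitted gap between these lines is given without the other 2 arrays.

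Ano1, a calcium-activated chloride channel, read from 11.62 to 12.19 in the d16HER2 lines, 10.23, 10.27, 9.95 and 9.89 in WTHER2-1, and 9.42, 9.30, 8.08 and 6.51 in WTHER2-2. The d16HER2 arrays lay above the rest, and the 2 lowest were the WTHER2-2 arrays poor in epithelial markers. The difference was 2.72 ± 0.64 (limma adjusted p = 0.153 over the 4 line means) and 2.20 without these, with the call kept. With all arrays, WTHER2-1 exceeded WTHER2-2 by 1.76 ± 0.45 (limma adjusted p = 0.00728). The WTHER2-2 arrays of the first BeadChip averaged 9.36, beside a WTHER2-1 mean of 10.09, so the size of that gap depended on the other 2 arrays. No adjusted p for it is given without them.

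Clca2, a protein that modulates calcium-activated chloride currents, read 6.16, 8.46, 8.20 and 6.91 in MI6 and 8.38, 8.44, 8.53 and 6.35 in MI7. It was detected on 1 WT HER2 array, WTHER2-1 replicate 3, at 5.67, and the others read from 4.72 to 5.09. The groups did not overlap, but 3 d16HER2 arrays lay well below the other 5, namely MI6 replicates 1 and 4 and MI7 replicate 4, and these were also the lowest d16HER2 arrays on the proliferation mean, whose part was not tested. The difference was 2.67 ± 0.29, at least 4.15-fold (limma adjusted p = 0.0617 over the 4 line means). Like Foxi1, Clca2 passed the signal filter through its 8 d16HER2 arrays and 1 other. It could hardly enter without differing, so its place among the separated genes supports nothing further.

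Kcnn4, a calcium-activated potassium channel that keeps the driving force for chloride secretion, differed by 2.15 ± 0.46 (limma adjusted p = 0.136 over the 4 line means). It read from 12.07 to 12.59 in the d16HER2 lines, from 10.46 to 11.11 in WTHER2-1, and from 8.76 to 10.10 in WTHER2-2. Slc12a2, the basolateral sodium, potassium and chloride cotransporter, was the other separated gene of the list and is named here after its values were seen. It read from 13.38 to 13.97 against 11.83 to 12.57, a difference of 1.54 ± 0.19 (limma adjusted p = 0.0694 over the 4 line means), and its second probe was separated too, at 1.74.

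**Figure D4:**
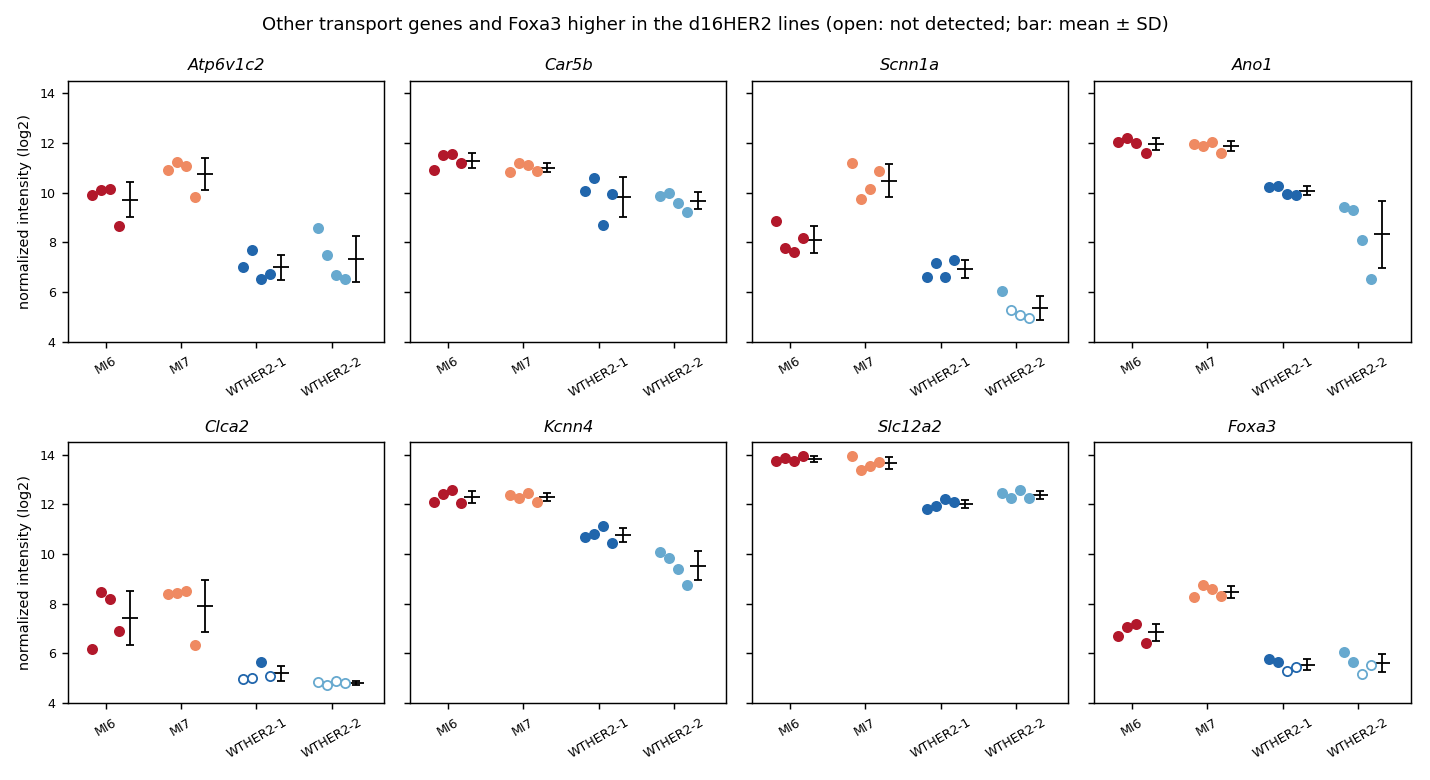
Normalized log2 intensity (vertical axis) of 8 separated genes outside the Foxi1 group, by line; open points are arrays that did not detect the gene and bars are the mean ± SD of 4 arrays. Foxa3 and Scnn1a were higher in MI7 than in MI6, and Ano1 and Kcnn4 were lowest in WTHER2-2.

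Between the WT HER2 lines, 14 of the 35 genes of this list were called, 12 of them higher in WTHER2-1 and 2 in WTHER2-2, beside 15.9% of all genes (8.17% and 7.7%). These counts and shares include WTHER2-2 replicates 3 and 4, the arrays poor in epithelial markers. They were not taken without them, so they describe the arrays as deposited. Fxyd3, a regulator of the sodium pump, read from 14.41 to 14.78 in WTHER2-1 and 11.79, 11.61, 10.82 and 6.80 in WTHER2-2, a difference of 4.33 ± 0.75 (limma adjusted p = 4.56e-04). WTHER2-1 matched the d16HER2 lines there, which read from 14.40 to 15.08. Aqp1, a water channel of endothelium and fibroblasts among others, ran the other way: it read 7.69, 7.96, 5.19 and 7.68 in WTHER2-1 and 10.62, 10.91, 14.65 and 14.36 in WTHER2-2, and was detected on 0 d16HER2 arrays. The WTHER2-1 minus WTHER2-2 difference was -5.50 ± 0.81 (limma adjusted p = 1.20e-04). Slc12a8, a carrier of the cation and chloride cotransporter family, was likewise higher in WTHER2-2, by a WTHER2-1 minus WTHER2-2 difference of -2.19 ± 0.21. Fxyd3 was lowest and Aqp1 highest on WTHER2-2 replicates 3 and 4, and without these 2 arrays the differences were 2.87 and -3.64, both still called.

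The genes most like Foxi1 over the 16 arrays were looked for by the root mean square difference between profiles, each centred on its own mean, among 10723 genes. The closest were Afap1l1 (0.30), an actin filament adaptor, Rasl12 (0.40), a small GTPase of the Ras family, Aldh1a3 (0.56), a retinaldehyde dehydrogenase, Gad1 (0.58), a glutamate decarboxylase, and Krt23 (0.59), a keratin. Of the group, Car2 ranked 9 at 0.67, Clic6 ranked 35 at 1.01, Car12 ranked 50 at 1.16 and Atp6v1b1 ranked 219 at 1.86. The measure takes in the size of the step between lines, so genes with a larger or smaller step than Foxi1 rank lower even if their order of arrays is alike.

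The genes closest to Clic6 were Alox12e (0.95), an epidermal lipoxygenase, Foxi1 itself (1.01), Afap1l1 (1.11), Papln (1.16), an extracellular matrix protein, and Hs3st3b1 (1.16), a heparan sulfate sulfotransferase. Car2 ranked 17, Car12 ranked 86 and Atp6v1b1 ranked 197. Other Hs3st3b1 probes differed between transgenes by 2.38 and 2.03, beside 4.91 for the brightest. Alox12e read from 9.51 to 11.63 on the d16HER2 arrays, and of the WT HER2 arrays it was detected on WTHER2-2 replicate 1 alone, at 7.45 against 4.71 to 4.95 elsewhere. That array was also the WT HER2 array that detected Foxi1, Rasl12 at 6.36 and Aldh1a3 at 5.64. Afap1l1, Gad1 and Krt23, also close to Foxi1, did not single it out. Afap1l1 read 5.84 there and 5.96 and 5.92 on WTHER2-1 replicates 2 and 3, all detected. Gad1 was detected there and on WTHER2-1 replicates 2 and 3 and WTHER2-2 replicate 3. Krt23 was undetected there, at 5.34, and detected on WTHER2-1 replicates 1 to 3. WTHER2-2 replicate 1 had the largest share of detected probes, 42.4%, and the lowest detected signal of any array, 5.44.

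Outside the lists, and named after their values were seen, Sox10 read 11.12 on WTHER2-2 replicate 1 and from 4.65 to 4.70 on replicates 2 to 4, and Bricd5 read 7.85 there against 4.66 to 5.15. Both genes were high on every d16HER2 array, with Sox10 from 13.43 to 14.17 and Bricd5 from 12.86 to 14.24. In WTHER2-1, Sox10 was detected on every array, from 9.07 to 9.58, and Bricd5 read from 5.56 to 5.92. Sox10 signal was therefore not limited to that array among the WT HER2 arrays. The low signals of Foxi1 and Alox12e on that array thus came with signal of other genes that were high in the d16HER2 lines, and the source was not tested.

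**Figure D5:**
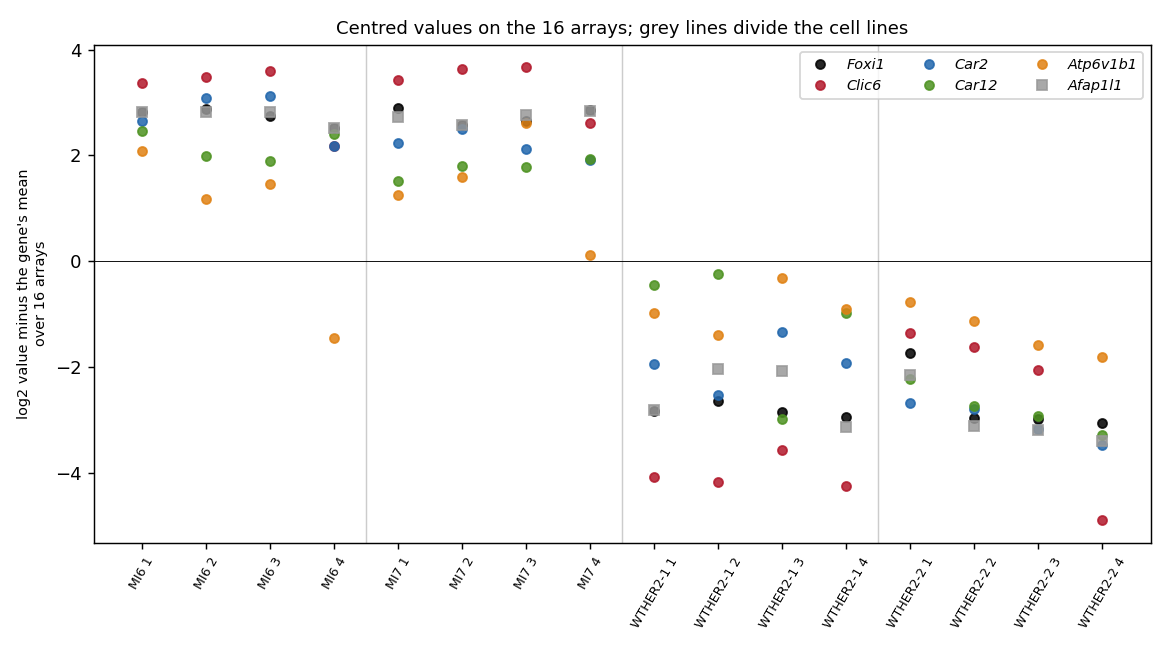
Log2 value minus the gene's mean over 16 arrays (vertical axis) on each array (horizontal axis) for Foxi1, Clic6, Car2, Car12, Atp6v1b1 and Afap1l1, the gene most like Foxi1 by its brightest probe. Afap1l1 points lie on or near those of Foxi1, with a root mean square difference of 0.30, and Atp6v1b1 departs most on MI6 replicate 4.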

How the data were processed

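Messenger RNA was measured in 4 mouse mammary tumour cell lines, 4 arrays each. The deposited table, exported with BeadStudio per the submitters' processing notes, holds, per the file headers, a non-normalized mean bead intensity of each probe on each array beside its detection p-value. The authors' deposited normalized intensity values served as an alternative. No depth applies to arrays, and their number limits the precision. Background was corrected in limma 3.58.1 (R 4.3.3, statmod 1.5.0) by normexp (offset 16), using the detection p-values, followed by quantile normalization and log2. Probes needed a detection p under 0.05 on at least 4 of 16 arrays, and a gene was read by its brightest passing probe. Platform annotation gave 1 symbol to 34885 of 45281 probes, several to 18 and none to 10378.

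Lines were compared by lmFit and eBayes over 16 arrays, and transgenes also by the same model on 4 line means, with Benjamini-Hochberg adjustment over 10724 genes. Within-line, line-pair and line-mean errors are from these fits, where eBayes draws each gene's variance towards that of genes of like intensity. Differences called at least N-fold set arrays below background to the lowest detected signal of that array. No p of its own is given between transgenes for Foxi1 and Clic6, whose values chose the group, or for Car12, whose difference was known beforehand.

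The members and lists were chosen with earlier results of these data known. Named were all members, up to 4 separated genes per list (or the 2 with the largest difference where none was separated), the 5 genes most like Foxi1 and like Clic6, and up to 2 called transport genes in each direction within each pair of lines, with unnamed clones and numbered gene predictions left out. The tests were checked on simulated data. Alternatives were no background correction, an offset of 50, the deposited values, no filter, the mean of a gene's probes, BeadChip as a random block, or as a fixed block for MI6 against MI7, each BeadChip of WTHER2-2 or that whole line left out, and each array left out.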

Additional observations from a re-analysis of the deposited data

Results flagged for a closer look

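Within each line, the highest and lowest of the 4 arrays were compared with the others for every named gene and member probe. A gap above Dixon's 95% critical value for 4 samples was found in 11 of 124 sets of 4 values, and chance alone flags about 5% of such sets.

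Several fell on MI6 replicate 4. Clic6 read 11.91 there against 13.10 to 13.34 on the line's other arrays, Atp6v1c2 read 8.66 against 9.92 to 10.15, Fxyd3 read 14.40 against 14.85 to 14.94, and Afap1l1 read 10.52 with the others at 10.82. Clic4 was high on that array, at 11.13 against 10.83 to 10.85. Clca2 was low on MI7 replicate 4, at 6.35 against 8.38 to 8.53.

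WTHER2-2 replicate 1 stood above its line for the brightest Foxi1 probe, at 5.98 against 4.68 to 4.76, and for Alox12e, at 7.45 against 4.89 to 4.95. In WTHER2-1, replicate 3 was high for Clca2 at 5.67 against 4.99 to 5.09 and low for Aqp1 at 5.19 against 7.68 to 7.96, and replicate 2 was high for Foxf1 at 6.92 against 6.43 to 6.48.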

How the results depend on the processing

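No paired analysis was possible because the labels give the arrays no replicate numbers, and those used here only follow the sample order. BeadChip, shared by MI6 and MI7, was used as a block instead. The separated calls of Foxi1, Clic6, Car12 and Car2 held under all 10 other settings and with each of the 16 arrays left out. No called difference changed sign. Differences without a call could: that of Kit, d16HER2 minus WT HER2, ran from -0.16 to 3.15 over these fits. The MI6 minus MI7 differences of Foxi1, Clic6 and Atp6v1b1 also took both signs. Atp6v1b1 lost its call with no background correction and in the deposited values (1.33 each), with no filter (2.22) and with BeadChip as a random block (2.22). It also lost its call without WTHER2-2 replicates 3 and 4 (2.05) and in 10 of 16 leave-one-out fits (2.01 to 2.25). Without WTHER2-2 replicates 3 and 4, the differences of the other members were 5.36 for Foxi1, 5.99 for Clic6, 3.80 for Car12 and 4.82 for Car2. Separated members numbered 4 to 5 and their probes 7 to 8 with 1 array left out.

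Members past the line-level test numbered 1, where 53 of 10724 genes passed. They numbered 2 with no background correction, with an offset of 50 and in the deposited values, where 52, 55 and 52 genes passed. Without replicate 4 of MI6 and MI7 (chosen after seeing the data), 2 members and 83 of 10630 genes passed. With no filter, and without the WTHER2-2 arrays of either BeadChip, 0 members passed, and 0 of all genes did. Without line WTHER2-2, 5 members and 1542 of 10384 genes passed. With 1 array left out, 0 to 3 members passed, where 0 to 142 genes did. In the settings that gave 0 in limma, 5 members had an unadjusted p under 0.05, on a contrast that chose Foxi1 and Clic6. So did 2565 of 19057 genes with no filter. Without the WTHER2-2 arrays of the first and of the second BeadChip, 1720 of 10531 and 1967 of 10566 genes did. Without WTHER2-2 replicate 1 and without replicate 2, 1982 of 10602 and 2032 of 10611 did. No member was called between MI6 and MI7 under any setting, but at an unadjusted p under 0.05 there were 2 with BeadChip as a fixed block and 1 (Car2) with it as a random block, with no background correction, with an offset of 50, in the deposited values, without the WTHER2-2 arrays of either BeadChip, without line WTHER2-2 and without replicate 4 of MI6 and MI7. Car2 was also under 0.05 without MI6 replicate 4, MI7 replicate 2, WTHER2-1 replicate 2 or 3, or WTHER2-2 replicate 4. Members called between the WT HER2 lines numbered 2, but 0 with no background correction and 0 in the deposited values (3 at an unadjusted p under 0.05 in each), 1 with an offset of 50, 1 without the WTHER2-2 arrays of the second BeadChip (Clic6, with Car2 and Car12 lost) and 1 to 2 with 1 array left out. Of the 10 genes most like Foxi1 or Clic6, 6 were kept with no background correction, 6 in the deposited values, 4 with the mean of probes, 5 without the WTHER2-2 arrays of the first BeadChip, 4 without line WTHER2-2, 6 without replicate 4 of MI6 and MI7, and 7 to 10 with 1 array left out.

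Foxa3 and Foxf1 lost their calls with no background correction (1.21 and -1.24), in the deposited values (1.21 and -1.24) and with an offset of 50 (1.56 and -1.51), as did Scnn1a (2.26, 2.26 and 2.64), Scnn1a also with BeadChip as a random block, Foxa3 without WTHER2-2 replicates 3 and 4 (1.98), and Car5b with the mean of probes (0.68). Clic4 gained a call with the mean of probes (-1.68) and Aqp1 under 2 of 9 other settings and in 5 of 16 leave-one-out fits. The causes were not tested. Values of undetected arrays near 5 limit what a difference in the WT HER2 lines can show.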
